A study of Homo sapiens with 4 samples.

Results

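Ribosomal protein processed pseudogenes were followed in T24 cells, a human bladder carcinoma line, with and without a knockout of IGF2BP3, a cytoplasmic protein that binds mRNA and reads the m6A mark. The pseudogenes were chosen by annotation and by level: processed or transcribed processed pseudogenes in GENCODE 29 whose symbol is that of a ribosomal protein gene followed by P and a number, with a mean of at least 1 FPKM (fragments per kilobase of transcript at a common library size) over the 4 libraries. Of 1131 genes with such symbols among the 58302 listed, 146 were above 0 in any library and 91 reached that mean. The 91 comprised 61 copies of large-subunit (RPL) and 30 of small-subunit (RPS) genes, descended by name from 43 parent genes and spread over 23 chromosomes, and 6 of them carried the transcribed annotation. The level thus chose the members, and the levels given here describe them without supporting anything about them.

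The series has 2 libraries of polyA RNA labelled control and 2 labelled knockout, the latter from a stable T24 line made with CRISPR/Cas9. The labels give no other treatment and do not say whether the line is 1 clone or whether the libraries are from independent cultures. The p-values thus rest on the spread between these libraries, shared across genes of like level, and that spread may be technical.

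A processed pseudogene arises when a spliced mRNA is reverse transcribed by the LINE-1 machinery and inserted elsewhere in the genome. The copy lacks the introns and promoter of its parent and usually decays by mutation, so young copies remain nearly identical to the parent's coding sequence. Ribosomal protein mRNAs, among the most abundant of any cell, have left very many such copies, and a sequencing read from an unchanged stretch fits parent and copy alike. How reads that fit several genes were assigned is not given in the sources used here, and values of near-identical copies are uncertain for that reason.

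The library totals worked out from the FPKM values were 811823 to 2162179 reads, and the pseudogenes took 5581 and 4300 reads in controls and 2515 and 2079 in knockouts. For a pseudogene of median length, 1 read was worth 0.756 and 0.873 FPKM in controls and 2.01 and 1.32 FPKM in knockouts. IGF2BP3, the targeted gene, stood at 2.94 FPKM in control 1 and 21.5 in control 2, and at 0 in knockout 1 and 0.190 in knockout 2. Its log2 difference was −3.89 ± 2.83 (SE) with an adjusted p of 0.955 in limma, so the fit used here did not call the targeted gene itself. The T24 labels were checked against epithelial and T24 markers: KRT8, KRT18 and VIM were present in every library, CDH1, EPCAM and KRT19 were at 0 in all 4, and the 8 markers summed to 961 and 936 FPKM in controls and 2157 and 1758 in knockouts. All 6 immune and all 3 erythroid markers were at 0. The 7 markers of differentiated urothelium summed to 0.150, 7.16, 46.1 and 0 FPKM in control 1, control 2, knockout 1 and knockout 2, with UPK1A, UPK1B, UPK2 and UPK3A at 0 in all. The 6 fibroblast markers summed to 14.9, 3.95, 0 and 6.73 FPKM in that order, and the 4 endothelial markers to 2.72 FPKM in control 2 and 0 elsewhere. The part of the marker difference in any result was not tested.

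The sequences set the terms for every value that follows, because they show how little separates many copies from their parents. In 5 of the 91, RPS28P7, RPL39P3, RPL21P16, RPL41P5 and RPL41P1, no base of the annotated pseudogene differed from a parent transcript. RPS28P7 (chr11:82689559-82689768, plus strand, in an intron of the opposite-strand gene MIR4300HG) and RPL39P3 (chr6:73373108-73373263, minus strand, in an intron of OOEP) are shown whole as the member of highest level and the member past the test threshold. RPL41P5 (chr12:93083598-93083675, minus strand) is shown as the shortest member. Sequences come from GENCODE 29 transcripts on hg38, and these 3 equal the full coding sequence of RPS28, RPL39 and RPL41, so no base is in capitals.
RPS28P7: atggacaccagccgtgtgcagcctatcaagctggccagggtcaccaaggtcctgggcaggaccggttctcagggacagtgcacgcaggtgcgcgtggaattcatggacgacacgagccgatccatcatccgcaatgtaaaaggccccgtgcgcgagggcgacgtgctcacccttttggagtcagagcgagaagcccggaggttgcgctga
RPL39P3: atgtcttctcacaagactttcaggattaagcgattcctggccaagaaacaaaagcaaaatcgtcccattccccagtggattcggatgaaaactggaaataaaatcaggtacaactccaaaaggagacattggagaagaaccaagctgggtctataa
RPL41P5: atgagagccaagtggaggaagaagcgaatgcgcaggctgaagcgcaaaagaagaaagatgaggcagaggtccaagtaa

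RPL21P75 differed from the parent at 1 position and was abundant. A stretch of 101 bases around that position is given, with the differing base in capitals in pseudogene and parent. RPL21P75 (chr7:20003111-20003211, plus strand) carried G397A, where the parent base stands first and positions count from 1 at the A of the parent's start codon. The stretch of RPL21P16 (chr10:120354737-120354837, minus strand) shows a copy of the same gene with no difference.
RPL21: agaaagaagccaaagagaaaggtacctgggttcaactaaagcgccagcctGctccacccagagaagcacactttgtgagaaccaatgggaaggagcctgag
RPL21P75: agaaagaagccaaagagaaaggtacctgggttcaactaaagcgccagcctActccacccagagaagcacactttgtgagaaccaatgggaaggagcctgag
RPL21P16: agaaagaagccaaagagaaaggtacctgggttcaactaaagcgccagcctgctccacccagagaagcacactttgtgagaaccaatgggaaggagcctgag

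RPS15AP30 (chr10:112987680-112987786, plus strand, in an intron of TCF7L2) stands for the diverged copies. Over 107 aligned bases it differed from coding bases 206 to 312 of RPS15A at 26 positions, in capitals in both.
RPS15A: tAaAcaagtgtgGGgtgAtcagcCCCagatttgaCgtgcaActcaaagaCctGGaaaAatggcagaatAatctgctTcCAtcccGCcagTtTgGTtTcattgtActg
RPS15AP30: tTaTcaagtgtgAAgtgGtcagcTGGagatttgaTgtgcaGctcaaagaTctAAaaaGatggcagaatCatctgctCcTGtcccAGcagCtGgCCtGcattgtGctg

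Identity to the parent over the best local alignment had a median of 97.8% and ranged from 67.9 to 100%. It was at least 98% in 44 members and at least 95% in 72, and below 90% in 7. The coding alignment was free of gaps in 47 members, and in 39 of these it also held no stop codon in the reading frame of the parent. An entire coding sequence without gap or premature stop was present in 31 members. Few substitutions separated other abundant copies from their parents: RPL9P9 carried T366C, RPL3P4 T852C and C885T, and RPL13AP5 C105T, G206T and A273G. The median member had 32.5% of its 50-base windows unchanged in a parent transcript, while 9 members shared no window with the parent and 86 had at least 1 window found in no other annotated transcript.

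Identity, which the choice of members did not use, tracked both presence and level. Among all 1131 copies, 7 of the 505 below 90% identity reached the mean of 1 FPKM, 12 of 445 from 90 to 95%, 28 of 120 from 95 to 98%, 19 of 30 from 98 to 99% and 25 of 31 (80.6%) at 99% or above. The median of the members' mean FPKM was 3.80, 6.85, 5.07, 9.76 and 97.6 in these classes in the same order. Members at 99% or above held 75.2 to 80.4% of the members' summed FPKM in each library. Over the 91 members, the rank correlation (Spearman) of mean FPKM was 0.57 with identity, −0.05 with length and −0.19 with the parent's mean FPKM. These are descriptions over genes that share libraries and, within a family, a parent sequence.

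**Figure D1:**
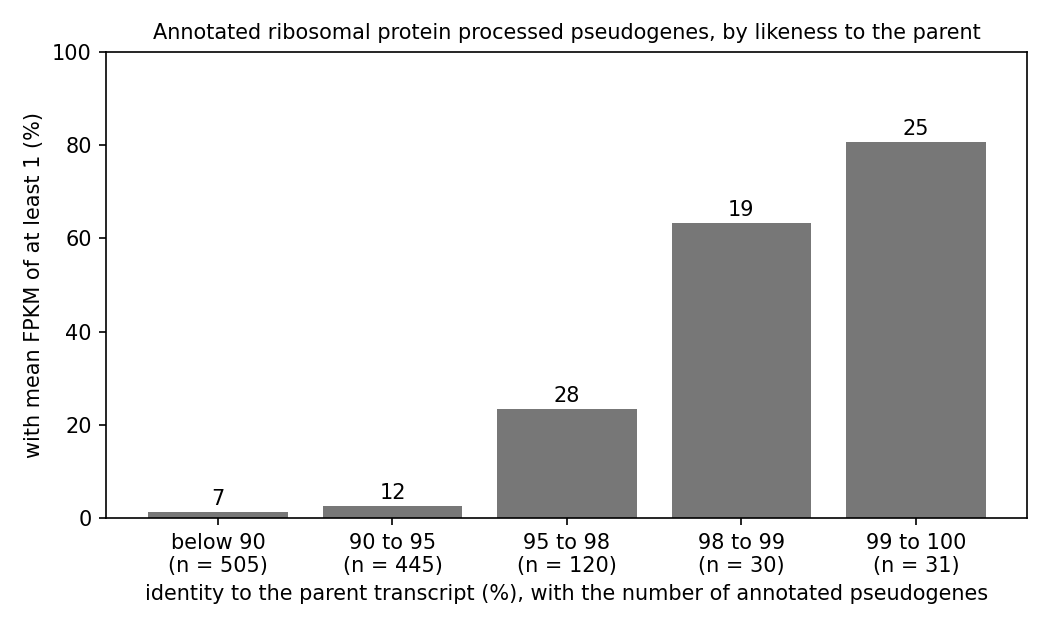
Share of all annotated ribosomal protein processed pseudogenes with a mean of at least 1 FPKM (vertical axis, percent), by class of identity to the parent gene (horizontal axis). The share is 1.39% of 505 copies below 90% identity and 80.6% of 31 copies at 99% or above.

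**Figure D2:**
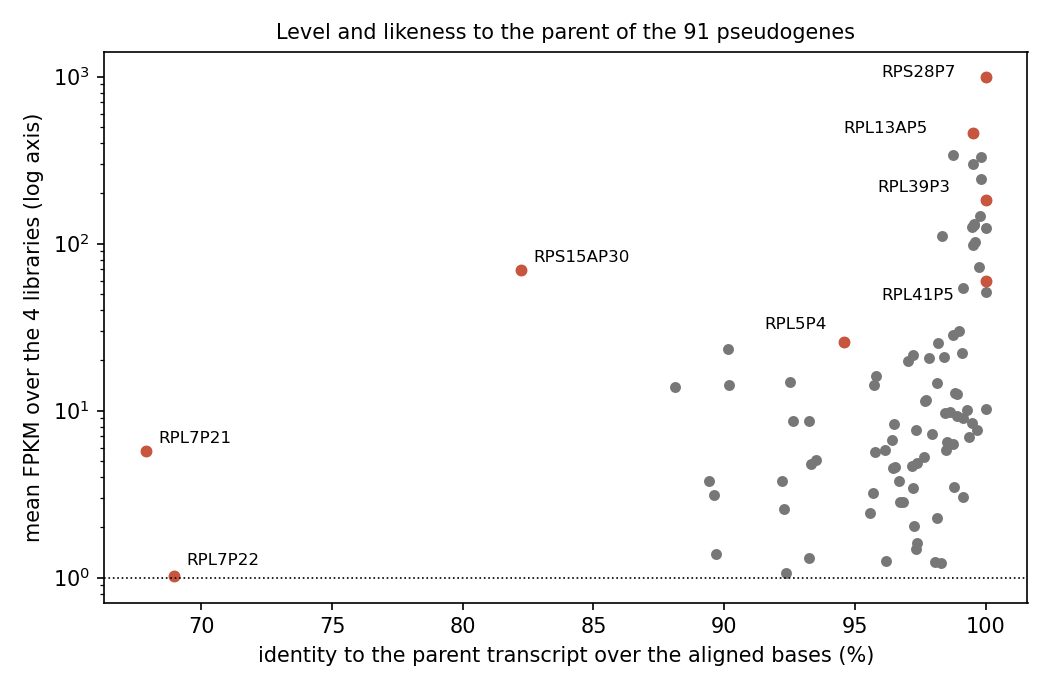
Mean FPKM over the 4 libraries (vertical log axis) against percent identity to the parent (horizontal axis), 1 point per member, with the minimum of 1 FPKM as a dotted line and examples named in orange. Members above 100 FPKM sit at identities of at least 98%.

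The signal was concentrated in few copies, and the 5 highest members held 51.1% of the summed mean FPKM. RPS28P7, a copy of the gene for a small-subunit protein at the mRNA exit channel, had the highest mean, with 692 and 1273 FPKM in controls and 1378 and 657 in knockouts. RPL13AP5, a copy of RPL13A (chr10:96750288-96750899, plus strand), followed with 409 and 616 FPKM in controls and 477 and 339 in knockouts. RPS2P5, a copy of RPS2 within an intron of the opposite-strand gene TAOK3 (chr12:118246084-118246962, plus strand), had 558 and 297 FPKM in controls and 348 and 149 in knockouts. For all 3 the groups overlapped.

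RPL9P9 is annotated as transcribed and lies at chr15:82372196-82372912 on the minus strand. It had 188 and 276 FPKM in controls and 559.7 and 290.3 in knockouts, so that both knockouts were above both controls, with a log2 difference of 0.82 ± 0.50 (SE) and an adjusted p of 0.955 in limma. RPL3P4, a partial copy of RPL3 (chr14:98972879-98973301, minus strand), had 758 and 171 FPKM in controls against 14.6 and 248 in knockouts, so 1 control was high, 1 knockout low and the other pair was close. RPL21P75, RPSAP58, RPL23AP42, RPS3AP6 and RPL21P16 had means of 125 to 145 FPKM.

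**Figure D3:**
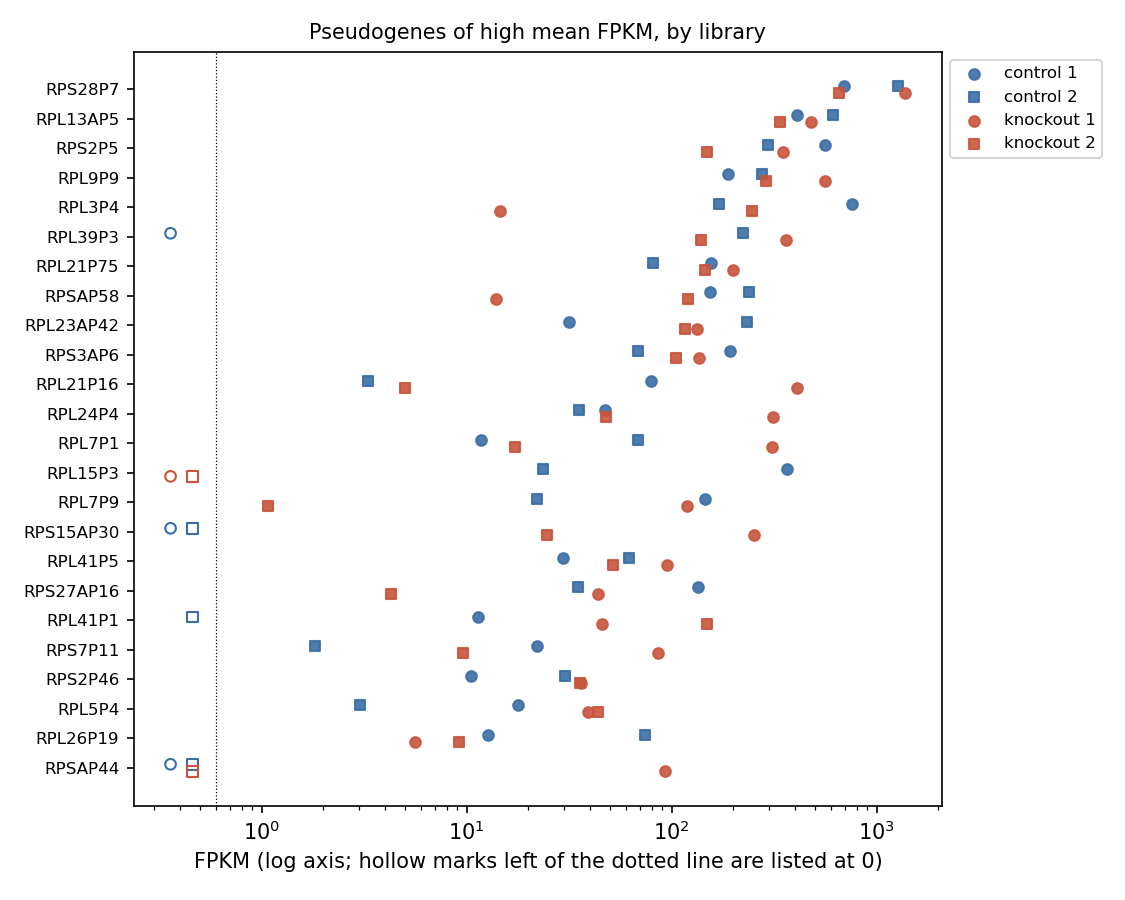
FPKM (horizontal log axis) of 24 members of high mean, 1 row each, with circles and squares for the libraries of each group and hollow marks left of the dotted line for values listed at 0. RPS28P7 lies between 657 and 1378 FPKM in all libraries, while RPL15P3, RPS15AP30 and RPSAP44 are at 0 in at least 2.

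Most copies varied widely between libraries of the same genotype, as did genes of like length. Genes of like length are all tested genes within the range of the members, 78 to 2078 bases, and include the members. RPL23AP7 alone sets the upper end, and the median copy has 611 bases, so the match in length is loose. Only 39 of the 91 were above 0 in all 4 libraries, 12 in 3, 22 in 2 and 18 in 1. At least 1 library was at 0 for 52 members (57.1%), against 49.4% of all tested genes, 69.5% of tested genes of like length, 81.4% of other processed pseudogenes and 5 of the 78 ribosomal protein genes tested. The median member differed by 2.36 between the controls and by 2.43 between the knockouts on the log2(FPKM + 0.5) scale, against 0.61 and 0.87 for the ribosomal protein genes. Genes of like length had 2.10 and 2.40, and other processed pseudogenes 1.97 and 2.94, so the members varied about as much as these. Among members above 0 in all libraries these medians were 1.49 and 1.51. RPL21P16 is an example, with 79.5 and 3.32 FPKM in controls and 411 and 5.01 in knockouts: 1 library of each group was high and 1 was near the floor of 3 reads. Across the 91 members the log2 levels of library pairs correlated with r of 0.41 to 0.55, across all tested genes with r of 0.42 to 0.49, and across the ribosomal protein genes with r of 0.70 to 0.86; these are correlations across genes, given as description.

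Copies of high identity were also more often above 0 in all libraries, beside their higher level. Of the 44 members at 98% or above, 29 were above 0 in all libraries and 0 in a single one. Of the 19 below 95%, 2 were above 0 in all libraries and 12 in a single one. The median of the mean FPKM was 23.7 at 98% or above and 5.08 below 95%, and the part of level in these counts was not tested. The 19 include RPL7P21 and RPL7P22, which were closer to RPL7L1 than to RPL7. RPSAP44, a copy of the laminin receptor and small-subunit gene RPSA at 90.1% identity, had 0 FPKM in both controls, 93.4 in knockout 1 (67 reads) and 0 in knockout 2. RPSAP16, named after its values were seen, had 57.0 FPKM in knockout 1 and 0 elsewhere.

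Diverged members often lay inside other genes. Of the 19 members below 95% identity, 11 (57.9%) sat in an intron of a protein-coding gene on the same strand, against 120 of the 931 copies below 95% that were no members (12.9%). At 95% or above the counts were 8 of 72 members (11.1%) and 8 of 109 others (7.34%). RPS15AP30, inside TCF7L2, a transcription factor of the Wnt pathway, had 0 FPKM in both controls, 253 in knockout 1 and 24.8 in knockout 2. TCF7L2 itself had 2.57 and 2.58 FPKM in controls and 24.4 and 4.68 in knockouts, so host and copy had their highest library in common, and the part of the host in the copy's value was not tested. A highest library in common held for 2 of the 11 members below 95% identity and for 4 of all 19 in same-strand introns. OOEP, the host of RPL39P3, was at 0 in all 4 libraries and counts as no match. The match of RPL9P7 and its host APOO rests on 0.461 FPKM of APOO in control 2. With only 4 libraries such a match can arise by coincidence, so these counts do not tell the part of the hosts. RPSAP16 lies in CEP350, which stood at 7.88, 13.1, 7.85 and 12.8 FPKM in control 1, control 2, knockout 1 and knockout 2. Where a copy overlaps an exon of a gene on the opposite strand, as 9 members do, reads of the pair cannot be told apart without a strand setting. That setting is not given in the sources used here. In 3 members the overlap is with an exon on the same strand, where a strand setting would not separate the reads.

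Knockout and control were compared to ask which copies differ with loss of IGF2BP3. RPL39P3, a copy of the gene for a small protein at the exit tunnel of the large subunit, was the 1 member past the threshold. It had 0 and 223 FPKM in controls (0 and 65 reads) and 363 and 139.6 in knockouts (46 and 27 reads). Control 2 lay between the knockouts, so the groups overlapped, and control 1 stood apart at 0. The log2 difference on log2(FPKM + 0.5) was 4.42 ± 0.96 (SE), with limma's adjusted p = 0.00882, and without control 1 the difference was 0.016. That SE reflects genes of like level more than the spread of RPL39P3's own libraries, and it was 2.93 with eBayes without trend. With any 1 of the 4 libraries left out, limma called 0 of all 11463 genes, so those fits tell nothing particular about RPL39P3. Over all 11463 genes tested, 10 (0.0872%) passed, 7 of them higher (0.0611%) and 3 lower (0.0262%) in the knockouts. Among the 3050 tested genes of like length, which include RPL39P3, 7 passed as higher and 2 as lower. RPL3P4 had the next smallest p: its log2 difference was −2.56 ± 0.64 with an adjusted p of 0.0552. In bulk RNA, fewer cells with a transcript and less of it per cell cannot be told apart.

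At an unadjusted p below 0.05 in limma there were 8 members of 91, beside 3.91% of all genes. Genes of like length had 243 of 3050, other processed pseudogenes 13 of 415 and ribosomal protein genes 6 of 78. Fitted differences were above 0 in 50 members and below 0 in 41, with a median of 0.087 on the log2 scale, against −0.08 over all tested genes, 0.089 over 415 other processed pseudogenes and 0.21 over the 78 ribosomal protein genes. The groups did not overlap in 24 members (26.4%), 14 higher and 10 lower in the knockouts. This was near the 26.5% of all genes (12.1% higher and 14.4% lower). The share was 20.1% for genes of like length and 16.6% for other processed pseudogenes. Those 2 lists were also more often at 0 in some library (69.5% and 81.4%, against 57.1% of members).

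**Figure D4:**
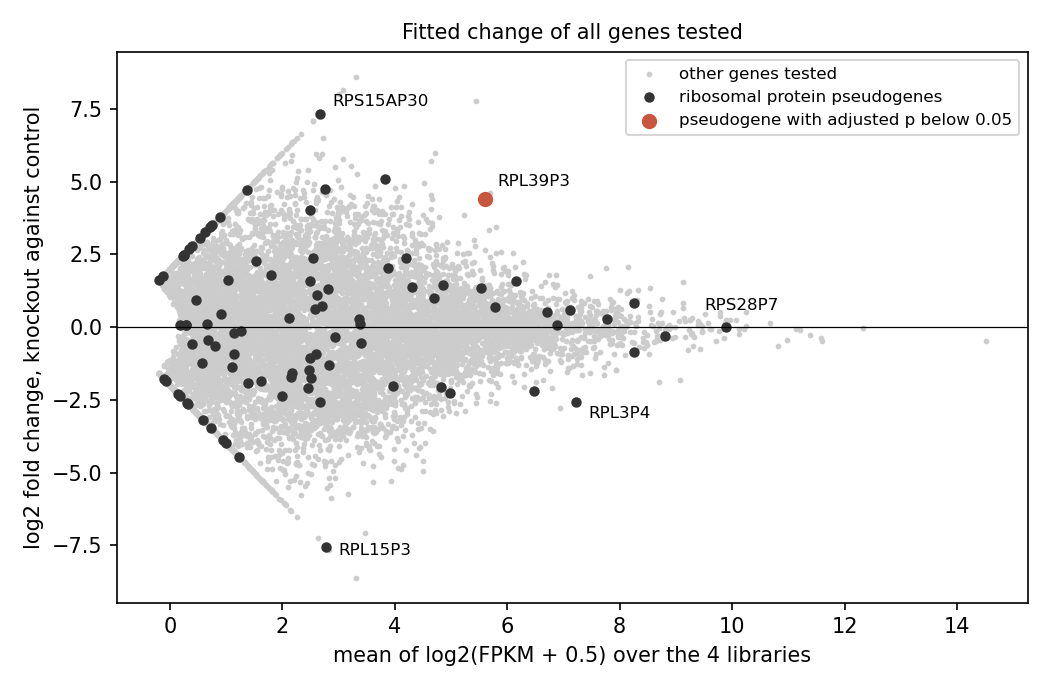
Fitted knockout minus control difference (vertical axis, log2 scale) against mean log2(FPKM + 0.5) over the 4 libraries (horizontal axis), with all tested genes in grey, the 91 members in black and RPL39P3, the member past the threshold, in orange. Members lie on both sides of 0, with 50 above and 41 below, and the diagonal edges are genes at 0 in both libraries of a group.

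Several copies were at 0 in 1 whole group and are given by reads, with the fold against a floor of 3 reads over that group. Each such copy reached the level minimum only through its other group. The folds here and below therefore describe these copies and support nothing about them, and the share of all genes with a group at 0 was not counted. RPL15P3, a copy of RPL15 at 99.5% identity, had 367 and 23.5 FPKM in the controls (488 and 27 reads) and 0 in both knockouts, at least 87.3-fold lower in the knockouts after scaling to the library totals, and at least 9.87-fold without control 1. Its 3 substitutions were C317T, A342G and C534T, and its parent had 145 and 65.8 FPKM in controls and 363 and 84.2 in knockouts. RPS15AP30 was at least 60.3-fold higher in the knockouts, with 80 and 12 reads there and none in the controls, and at least 13-fold without knockout 1. Neither passed the test, with limma's adjusted p at 0.205 and 0.366.

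The other copies with a whole group at 0 and reads in both libraries of the other rested on few reads. RPL29P11 had 3 and 13 reads in the knockouts and was at least 10.5-fold higher there, or 4.86-fold without control 1; without knockout 2, 3 reads are left and no limit is given. RPSAP8 had 32 and 11 reads in the controls and was at least 7.29-fold lower in the knockouts, or 2.89-fold without knockout 2. RPL7AP50 had 10 and 14 reads in the controls, at least 4.07-fold lower in the knockouts, or 1.61-fold without knockout 2. RPL23AP65 had 19 and 2 and RPS26P3 1 and 7 reads in the controls, and most of the reads of each came from 1 library. RPL10AP2 had 3 reads in all, in the knockouts, and no fold is given. Adjusted p was 0.955 for each of these 6.

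Non-overlapping groups without a group at 0 are next. RPL41P1, identical to RPL41, had 11.4 and 0 FPKM in controls and 45.6 and 149 in knockouts, which were only 2, 0, 3 and 15 reads of a transcript of 81 bases. RPL24P8 had 2.93 and 0 FPKM in controls against 54.6 and 22.1 in knockouts (3 and 0 reads against 21 and 13). RPL13P12 had 0 and 3.36 FPKM against 73.6 and 6.34 (0 and 4 reads against 38 and 5), so control 2 and knockout 2 were 4 and 5 reads. RPSAP58, a copy of RPSA, was lower in both knockouts, with 154 and 238 FPKM in controls against 13.9 and 121 (log2 difference −2.20 ± 0.77, adjusted p 0.687). RPS3AP47 had 25.1 and 2.70 FPKM in controls against 1.56 and 1.02, where each knockout held 1 read. RPL14P1 had 11.5 and 6.63 FPKM in controls against 5.73 and 1.25, with 3 reads or fewer in each knockout. None of these passed limma's threshold.

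RPL24P4, a copy of RPL24 at 98.3% identity, was high in knockout 1 and alike in the other libraries, with 47.2 and 35.6 FPKM in controls and 313 and 47.9 in knockouts. Both knockouts were above both controls, knockout 2 only just, and the log2 difference of 1.57 ± 0.84 had an adjusted p of 0.955 in limma. RPS4XP17 had 20.3 FPKM (19 reads) in knockout 2 and 0 in the other libraries. It overlaps an exon of VPS53 on the same strand, and reads from the overlap cannot be told apart.

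The members summed to 4515 and 4677 FPKM in the controls and to 6413 and 3387 in the knockouts. The knockouts thus lay on both sides of the controls, and the ratio of group means was 1.07. Set against the 79 ribosomal protein genes, the pseudogenes took 20.3 and 20.5% of the combined FPKM in controls and 22.3 and 16.4% in knockouts. By reads, which are not divided by length, the shares were 7.98 and 6.94% in controls and 7.46 and 5.49% in knockouts.

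Each copy was then set beside its parent. The FPKM length of a parent is its longest annotated transcript, with a median of 1600 bases, while that of a copy is about the coding sequence, with a median of 611 bases, so FPKM ratios run higher than read ratios. In 69 of the 91 pairs the copy was below its parent in every library. In 4 pairs the copy was above it in all 4 libraries: RPS28P7, RPL13AP5, RPL9P9 and RPL21P75. By reads this held in 3, without RPL13AP5.

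RPS28 was listed at 0 FPKM in 3 libraries and at 0.529 FPKM (1 read) in knockout 2, while its identical copy RPS28P7 had 314 and 500 reads in controls and 235 and 171 in knockouts. RPL9 had 22.6 and 22.3 FPKM in controls and 48.6 and 1.87 in knockouts, below RPL9P9 throughout (115, 98, 93 and 5 reads against 259, 328, 289 and 229). RPL21 had 7.38 and 6.56 FPKM in controls and 57.4 and 36.6 in knockouts, below the 156, 80.8, 199 and 145 FPKM of RPL21P75. In all 3 families the value listed for the ribosome's own gene thus stood below that of its copy. Of the 50-base windows, 100% in RPS28P7, 90.6% in RPL9P9 and 88.5% in RPL21P75 were unchanged in the parent. Reads from such stretches fit both genes, so these values do not tell which gene of a pair was expressed more. RPL39 had 3.38 and 1.40 FPKM in controls and 7.72 and 20.6 in knockouts, below RPL39P3 in the 3 libraries that listed the copy above 0. By reads the order turned in knockout 2, with 49 for RPL39 and 27 for RPL39P3.

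**Figure D5:**
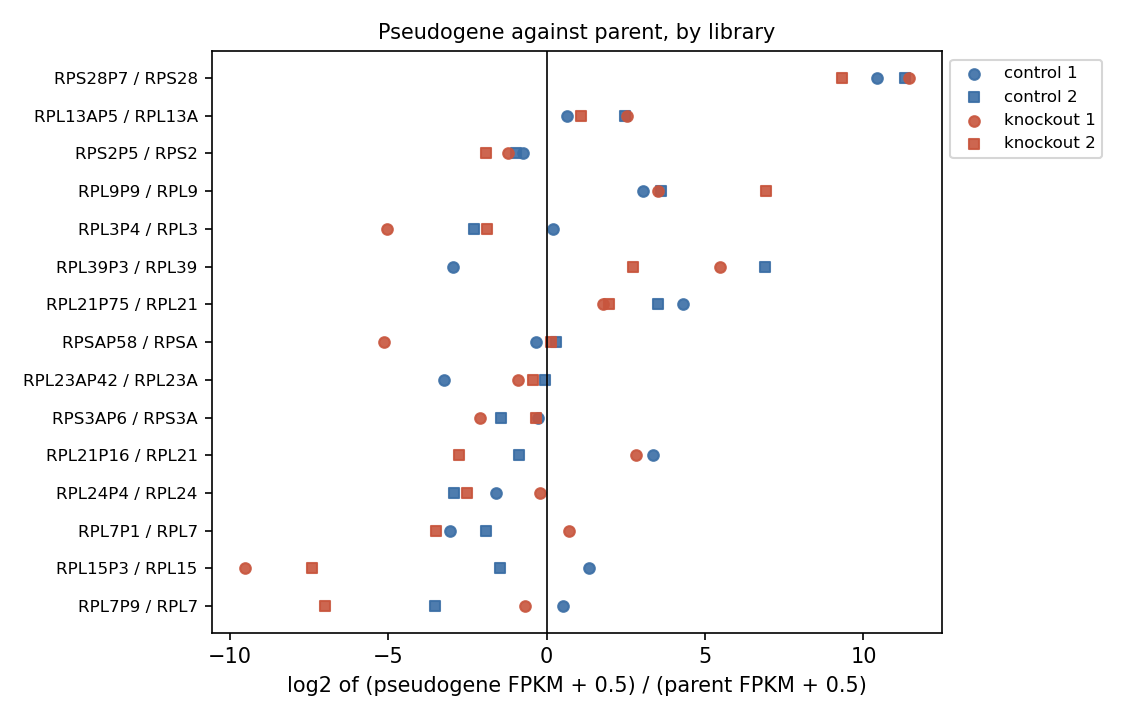
Log2 ratio of pseudogene to parent, (FPKM + 0.5) over (FPKM + 0.5), per library (colours and shapes) for 15 members of high mean. Points above 0 mark libraries where the copy exceeds its parent, as in all 4 for RPS28P7, RPL9P9, RPL21P75 and RPL13AP5.

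The change of the copy-to-parent ratio was fitted over 288 pairs of all gene families, of which 90 were ribosomal (RPS28 was under the level minimum). In limma 0 of the 90 ribosomal pairs passed the threshold, as did 0% of all pairs. At an unadjusted p below 0.05 there were 3 ribosomal pairs, beside 3.82% of all pairs, and eBayes without a trend also called 0. The groups did not overlap in 25 of the 90, beside 28.8% of all pairs. The median log2 change of the ratio was −0.20 for ribosomal pairs and 0.32 for the 198 pairs of other families. Among ribosomal pairs whose groups did not overlap, RPS15AP30 had the largest change, 9.45 ± 2.08 (SE, adjusted p 0.182): the copy was at 0 in both controls and above 0 in both knockouts, where RPS15A had 10.3 and 2.74 FPKM against 21.9 and 29.2 in controls. RPL15P3 had the largest negative change, −8.39 ± 2.41 (adjusted p 0.541). RPL21P75 had a change of −2.04 ± 1.66 with no overlap, since RPL21 was higher in both knockouts and the copy was not (adjusted p 0.922).

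By parent, RPSA had the most members, 9, with means from 1.06 to 132 FPKM and identities from 89.7 to 99.5%. Only 1 of them was above 0 in all libraries and 5 were above 0 in 1, and they summed to 243 and 303 FPKM in controls and 164 and 156 in knockouts. RPL7 had 6 members, with sums of 181 and 95.2 FPKM in controls and 442 and 48.8 in knockouts. RPL23A also had 6, with sums of 51.5 and 247 in controls and 139 and 125 in knockouts. The sum of the RPSA copies was lower in both knockouts, with 3 of the 9 fitted differences above 0 and 6 below, and none of the 9 passed the test; the sums of the RPL7 and RPL23A copies overlapped between the groups. The families of RPL9 and RPL41 were named after their values were seen. Their sums were higher in both knockouts. The 2 copies of RPL9 had 192 and 294 FPKM in controls against 562 and 297, so control 2 was close to knockout 2. The 2 of RPL41 had 41.1 and 61.7 against 140.4 and 201, from few reads. RPL41P5 had 5 and 9 reads in controls and 6 and 5 in knockouts, and RPL41P1 had 2 and 0 against 3 and 15. RPL41 itself had 31.1 and 25.2 FPKM in controls and 84.6 and 127 in knockouts. Sums for the copies of RPL21, RPS2 and RPL13A overlapped. No copy of RPL9 or RPL41 passed.

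At the level minimum, RPL7P22 (mean 1.02 FPKM), RPSAP52 (1.06) and RPL23AP74 (1.22) were just inside, and RPL10P12 (0.997), RPS14P4 (0.959) and RPL15P2 (0.873) just outside. RPSAP52, a transcribed copy of RPSA that overlaps an exon of HMGA2 on the opposite strand, had 6 reads, all in knockout 2.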

How the data were processed

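PolyA RNA of T24 cells was sequenced in 2 control and 2 knockout libraries, with the Illumina TruSeq protocol per the labels. The authors deposited FPKM per gene and library. The submitters' processing notes name hg38 as the build; an aligner, a strand setting or a treatment of reads that fit several genes was not given in the sources used here. Reads were recovered from the FPKM as whole multiples of the worth of 1 read at the longest GENCODE 29 transcript, whole within 0.0001 for 96.4 to 96.5% of genes above 0 and for all 91 members. The floor covers counting error of the group at 0 only. The reads of the other group are taken as they stand, so folds given as "at least" are not full lower limits. Amplified reads are also not independent molecules.

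Genes at a mean of at least 1 FPKM (11463) were tested with limma 3.58.1 in R 4.3.3 (lmFit, eBayes with trend) on log2(FPKM + 0.5) with a two-sided p, adjusted after Benjamini-Hochberg and called below 0.05. Fold changes on that scale understate changes of low genes. The ratio to the parent was fitted in the same way over 288 pairs. Both fits were also run on simulated reads. The spread of those reads was set by hand and not taken from these libraries, so the simulation does not show how well the fits work here. Identity is that of the best local alignment of the annotated transcript to parent coding transcripts. Members and lists were chosen with earlier results of these data known. Named members are those past the threshold, the 12 of highest mean, up to 6 in each direction among non-overlapping groups and ratios, up to 8 above 0 in all libraries, and those nearest the level minimum; 1 of them is not reported here. Alternatives changed the pseudocount, level filter, scaling, variance model, threshold and libraries.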

Additional observations from a re-analysis of the deposited data

How the results depend on the processing

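Named members were followed here without those nearest the level minimum, which left 27. Of these, 25 kept the sign of their difference in the 5 alternatives with every library that can move it (2 pseudocounts and 3 scalings). With some library left out, 4 changed sign. The exceptions to the first count were RPS28P7 (−0.14 with quantile normalization and −0.011 at equal upper quartiles) and RPS3AP6 (−0.050 with quantile normalization), whose differences were near 0. Leaving out 1 library at a time, so that a lone library takes its spread from the other group, log2 differences ranged from −0.51 to 0.55 for RPS28P7, −0.91 to 1.97 for RPL23AP42, −0.69 to 0.80 for RPS3AP6, −1.67 to 4.56 for RPL21P16 and 0.016 to 8.82 for RPL39P3.

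The count of members past the threshold was 1, of 10 genes called in all. It was 2 (RPL39P3 and RPL3P4) with a pseudocount of 0.1 (11 genes in all), a minimum mean of 5 FPKM (9 of 8100), each library rescaled to the same sum (TPM, 13), or an adjusted p of 0.1. It was 0 with limma-voom on recovered reads (2 members unadjusted), which called 9 of 11043 genes. With eBayes without trend it was 0 (7 unadjusted), and with each library left out 0 to 0 (9 to 11 unadjusted); these fits called 0 genes of any kind. The median difference of members ranged from −0.075 to 1.09 with a library left out, the highest without control 2. Ribosomal pairs past the threshold ranged from 0 to 1: without control 1, 5 of 288 pairs passed, among them RPL3P2, whose 29 reads all lie in control 2. The sum ratio ranged from 0.737 to 1.40. The cause of these shifts was not tested.

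With the replicate number as a block, 1 member (RPL39P3) and 0 pairs passed; same-numbered libraries did not deviate together (correlation −0.004), the labels share only a number, and the block changed no call of a member or pair, while 14 of all genes passed with it against 10 without. After seeing the data, the 4 members above their parent in all libraries were recounted by reads (3) and at a mean of at least 5 FPKM (4).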

Other observations

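RPL7P21 and RPL7P22, chosen after their values were seen, were named as copies of RPL7 but were closer to RPL7L1, a paralog that works in ribosome assembly. Their identity was 97.8% and 97.3% to RPL7L1, against 67.9% and 68.9% over part of their length to RPL7. RPL7L1 had 31.0 FPKM in control 1, 55.6 in control 2, 20.1 in knockout 1 and 18.9 in knockout 2. Both copies thus count among the members below 90% identity by their symbol.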
